A study of Homo sapiens with 8 samples.

Results

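The resting state of H2030-BrM cells was described from the messenger RNA bound to their ribosomes in the culture dish. H2030-BrM is a brain-metastatic derivative of H2030, an established human lung adenocarcinoma line. The description rests on the 2 libraries of control cells taken from the dish, out of 8 libraries in 4 groups, and was chosen by the columns of the deposited table that carry those labels. It covers all 23368 gene symbols of the table and makes no comparison with the other groups. The cells carried a control short hairpin RNA against luciferase, expressed the tagged ribosomal protein EGFP-Rpl10a, grew in RPMI medium with 10% fetal bovine serum and were taken at 0 h. Whether the line is a single clone or a pool of transduced cells is not given in the sources used here.

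Translating ribosome affinity purification recovers ribosomes through a tag on a ribosomal protein, and sequencing then reads the messenger RNAs that sit on them. Abundance in such a library follows both how much of a transcript a cell holds and how much of it is on ribosomes, and the method does not separate the 2. Lung adenocarcinomas arise from the distal airway and alveolar epithelium, whose cells are known by surfactant proteins, secretoglobins and the transcription factor NKX2-1. Work on brain metastasis has dealt, among other subjects, with adhesion molecules, inhibitors of the plasmin system and gap junction proteins. These groups are therefore described beside the lineage genes.

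The libraries held 15838921 reads in replicate 1 and 16253609 in replicate 2. They are labelled as biological replicates, and nothing states that they came from separate cultures, so the spread between them may be partly technical. Here a gene is present when it had at least 10 reads in both libraries, near zero when it had at most 3 in both, and low otherwise. By this rule 12814 genes (54.8%) were present, 1573 were low and 8981 were near zero, of which 6375 had no read in either library. Counts of present members in the gene lists below should be read beside this 54.8%. Of the listed genes, 33.7% were present in the lineage lists, 56.4% in the receptor lists and 53.0% in the adhesion lists. The share was 45.2% in the secreted lists and 78.1% in the pathway lists. A count of 0 allows up to 3 reads, or 1.89e-05% of the reads in replicate 1 and 1.85e-05% in replicate 2, and this limit covers counting error only. Shares of reads describe where the signal of a library lies, and levels of different genes are compared per length, as reads per kilobase of transcript scaled to sum to 1000000 over all genes, a value named the per-length level. Values joined by "and" are those of replicate 1 and replicate 2, in that order.

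The most abundant ribosome-bound transcripts included those of ribosomal proteins, the cytoskeleton, chaperones and the secreted proteins TFPI2 and SPP1. GAPDH, S100A6 and NQO1 were also among them. Many ribosomal protein and elongation factor transcripts begin with a terminal oligopyrimidine tract, a C followed by a run of C and T, through which the mTOR pathway is known to control their translation. The first bases of the transcripts that led the libraries are therefore shown, to let the starts of the translation genes be set beside those of the other leading genes. Each line holds 10 bases before and 20 bases from the start that RefSeq gives, in build GRCh38.p14. Capitals mark a start on C that is followed by at least 4 further bases that are each C or T, to the end of the run.

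Among genes of the translation machinery with a start in the RefSeq table, 6 of the highest per length began as follows, with RPL30 and RPL8 not shown.
RPS21, chr20:62387093-62387122, plus strand: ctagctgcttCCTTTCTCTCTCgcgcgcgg
RPS16, chr19:39435930-39435959, minus strand: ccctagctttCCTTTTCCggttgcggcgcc
RPS18, chr6:33272065-33272094, plus strand: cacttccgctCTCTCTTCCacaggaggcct
RPS14, chr5:150449720-150449749, minus strand: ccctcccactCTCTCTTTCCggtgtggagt
RPL19, chr17:39200273-39200302, plus strand: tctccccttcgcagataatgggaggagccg
RPL11, chr1:23691769-23691798, plus strand: cctggcccataaggccctcggccggaagct
The 6 highest genes outside the translation machinery with a start in that table began as follows.
TFPI2, chr7:93890734-93890763, minus strand: cgcctggagcagaaagccgcgcacctcctc
TMSB10, chr2:84905646-84905675, plus strand: ccgctcttttgtttcttgctgcagcaacgc
SPP1, chr4:87975704-87975733, plus strand: ggttgtcagcagcagcaggaggaggcagag
GAPDH, chr12:6535254-6535283, plus strand: gtgcatccctgtccggatgctgcgcctgcg
S100A6, chr1:153535972-153536001, minus strand: gacacagcccatcccctcgaccgctcgcgt
HSP90AA1, chr14:102139730-102139759, minus strand: tttacggcccgactgcgcaggcgtgctcac
Such a run opened 4 of the 6 translation transcripts and none of the other 6.

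Over the table, 14060 symbols matched a RefSeq start, and 4.64% of those starts carried the run. Among present genes the run stood at 44 of 67 cytosolic ribosomal proteins with a start (65.7%), and at 12 of 47 initiation and elongation factors (25.5%). It was at 5 of 69 mitochondrial ribosomal proteins (7.25%), whose transcripts also encode ribosome parts but for the organelle, and at 0 of 40 proteasome genes. Of the 100 present genes with the highest per-length level, 32 carried it. Outside both translation classes, the median per-length level was 28.6 for the 441 present genes with the run and 22.6 for the others. RefSeq gives 1 start per gene here, and a start a few bases off would hide a run, so the shares describe these annotated starts.

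Signal was spread over many genes. The highest single gene took 0.845% of reads in replicate 1 and 0.894% in replicate 2, and the highest 10 took 4.73% and 4.71%. It took 1057 genes in replicate 1 and 1041 in replicate 2 to reach 50% of the reads, and 5636 and 5689 to reach 90%. Per length the signal was more concentrated, with 557 and 522 genes reaching 50%. Among present genes the median per-length level was 21.7, with 5% of them below 1.06 and 5% above 295, and 129 genes of the table reached 1000 in both libraries.

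TFPI2, a Kunitz-type inhibitor of plasmin and other serine proteases that is deposited in the matrix, had 109848 and 145294 reads. Its mean per-length level was the highest of the table, 7560.6 ± 1205.9 (SD, n = 2). TMSB10 lay within that SD, at 7509.9 ± 1055.0, and was above TFPI2 in replicate 1, at 6763.9 against 6707.9. HSP90AA1, the stress-inducible cytosolic HSP90, held the most reads in replicate 1 and the most on average, 133796 and 125242. Its per-length level was 5691.3 and 5051.8. By reads HSP90AA1 and TFPI2 therefore changed places between libraries, since TFPI2 was first in replicate 2. SPP1, the secreted phosphoprotein osteopontin, which binds integrins and CD44, had 64278 and 73123 reads and a per-length level of 6070.2 and 6548.2. NQO1, a quinone reductase, had 67625 and 68167 reads at a per-length level of 3467.3 and 3314.2. TXNRD1, the cytosolic thioredoxin reductase, followed with 60880 and 58608 reads, or 2125.2 and 1940.1 per length.

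The other genes of the 20 with the most reads, from a ranking that skips genes not reported here, were mainly housekeeping genes. They included GAPDH, PKM2 and ENO1 of glycolysis, the actins ACTB and ACTG1, the tubulin TUBB, the chaperones HSPA8, HSP90AB1 and CCT5, the elongation factor EEF2, and the ribosomal proteins RPL8 and RPL4. PTP4A1, a small membrane-linked tyrosine phosphatase, had 27520 and 30887 reads. CLU, the secreted chaperone clusterin, had 25329 and 31684 reads and per-length levels of 1227.8 and 1456.4. DYNC1H1, the dynein heavy chain, reached the list through its length of 20003 bases, with 30726 and 27242 reads and a per-length level of only 229.3 and 192.8. Ranked per length, 10 of the 20 leading genes reported were ribosomal proteins, and the actin-binding peptides TMSB10 and TMSB4X joined them at 6763.9 and 8255.9 and at 2953.8 and 3225.4. S100A6, a calcium-binding protein, stood at 5817.3 and 6397.3.

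Grouped by gene class, cytosolic ribosomal proteins took the largest share of reads among the 30 named classes, 4.94% and 5.56%, or 5.25% ± 0.441 (SD, n = 2). Per length their share was 10.996% and 11.999% on the scale that divides by transcript length. RPL10A, whose mouse form is the tagged protein, had 7110 and 8243 reads and a per-length level of 1482.6 and 1629.9. Whether reads of the transgene add to it was not tested. Ribosomal proteins have many processed pseudogenes, and the counting of reads that match several places is not given in the sources used here, so their single values are uncertain.

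The next classes were the cytoskeleton and protein folding. Actins, tubulins and their partners took 3.53% and 3.34% of reads. Heat shock proteins with the cytosolic chaperonin took 2.73% and 2.52%, and folding and translocation factors of the endoplasmic reticulum took 1.77% and 1.85%. Splicing factors and nuclear ribonucleoproteins held 2.54% and 2.39%, initiation and elongation factors 2.27% and 2.32%, and vesicle traffic with small GTPases 2.24% and 2.23%. Every one of these classes exceeded the secreted matrix, serpin and protease classes in reads, in both libraries.

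Proliferation and energy genes were well represented. Replication and mitosis genes took 1.96% and 1.88% of reads, with 156 of 172 members present and TOP2A, the DNA topoisomerase of dividing cells, the highest by reads. Nuclear-encoded oxidative phosphorylation took 1.59% and 1.73% of reads and 3.40% and 3.67% per length. Glycolysis and lactate genes took 1.54% and 1.42% of reads and 1.73% and 1.55% per length. So the summed share of glycolysis was below that of oxidative phosphorylation on both scales and in both libraries, by the wider margin per length. By reads the means were 1.48% ± 0.083 and 1.66% ± 0.103 (SD, n = 2). The classes differ in size, with 18 of 21 glycolysis genes and 81 of 91 oxidative phosphorylation genes present. These sums therefore do not compare single genes. The proteasome took 1.17% and 1.11%, mitochondrial ribosomal proteins 0.760% and 0.764%, and the citrate cycle 0.364% and 0.372%.

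Surface and matrix classes were smaller. Collagens, laminins and secreted matrix took 0.768% and 0.815% of reads, and SPP1 alone was 0.428% of reads on average. Serpins, proteases and their inhibitors took 0.559% and 0.620%, a class that leaves out TFPI2. Integrins, cadherins, claudins and desmosome genes took 0.538% and 0.537%, keratins and other intermediate filaments 0.301% and 0.287%, and receptor tyrosine kinases 0.161% and 0.150%. Genes outside all named classes held 61.3% and 60.99% of reads.

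**Figure D1:**
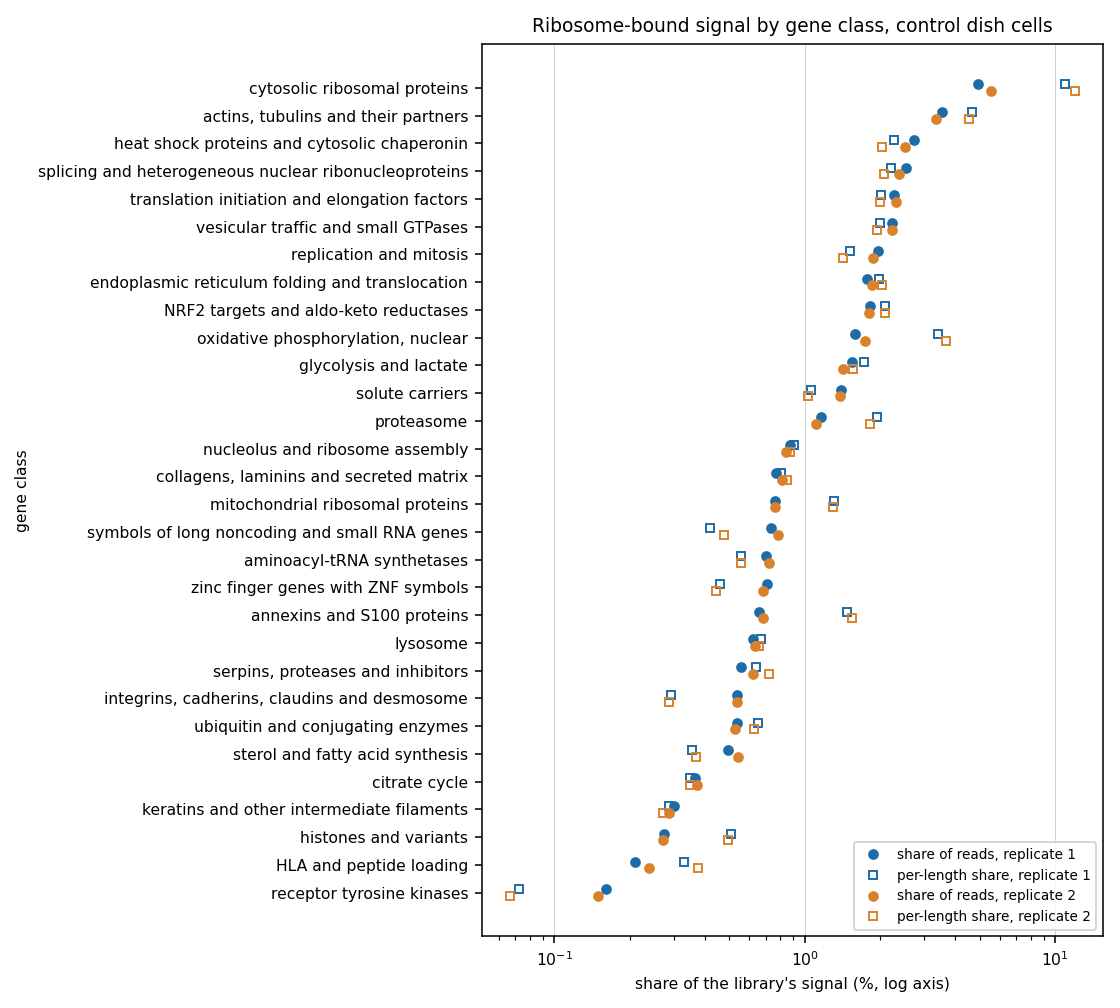
Share of the signal of each library by gene class, in percent on a log axis, for both control dish libraries. Filled circles are shares of reads, open squares are shares after division by transcript length. Cytosolic ribosomal proteins lead on both scales, at 4.94% and 5.56% of reads and at 10.996% and 11.999% per length, and the points of the 2 libraries lie close together beside the distance between classes.

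The label lung adenocarcinoma was checked against the markers of lung epithelium. For the alveolar type 2 cell, the surfactant proteins and several other markers had fewer than 10 reads. SFTPA1, SFTPA2, SFTPC and SFTPD, the surfactant proteins, had no read in either library, and SFTPB had 0 and 3. NKX2-1, the factor that drives surfactant genes and marks most lung adenocarcinomas, had 9 and 6 reads, a per-length level of 0.575 and 0.363. NAPSA, the aspartic protease used beside it in diagnosis, had 4 and 2 reads, SLC34A2, the phosphate transporter of these cells, had 0 and 1, and PGC had none. These are bulk libraries of ribosome-bound RNA, in which fewer cells of a type and less RNA per cell cannot be told apart.

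Of the type 2 markers 6 of 15 were present. LPCAT1, which remodels phosphatidylcholine, had a per-length level of 89.4 and 78.7. ETV5, an ETS factor downstream of MAP kinase signalling, had 67.9 and 64.8, and the autophagy regulator DRAM1 had 21.1 and 19.8. CEBPA, a differentiation factor, stood at 14.8 and 12.9, the lamellar body transporter ABCA3, itself a type 2 marker, at 12.2 and 14.9 and LAMP3, another, at 0.796 and 1.13. The list was thus split, with the secreted surfactant proteins near zero and members of lipid handling present.

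Alveolar type 1 markers showed the same kind of split. CAV1 and CAV2, the caveolins, had per-length levels of 309.8 and 238.4 and of 91.05 and 77.97. GPRC5A, an orphan receptor of lung epithelium, had 57.8 and 51.8, VEGFA, the vascular growth factor, 28.8 and 26.6, and the tetraspan protein EMP2 19.02 and 17.9. RTKN2 was at 3.46 and 2.75, AGER, the receptor RAGE that marks these cells, at 2.62 and 3.28, SEMA3B at 1.51 and 2.73 and AKAP5 at 0.506 and 0.524. AQP5, PDPN, HOPX and CLIC5 had no read in either library. In all, 9 of 13 of the list were present and 4 near zero.

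Airway lineages were nearly empty. Of 23 airway secretory markers, 3 were present and 18 near zero. SLPI, the secreted leukocyte protease inhibitor, had 995 and 1592 reads, per-length levels of 249.3 and 378.2, and was the higher in replicate 2. MUC1, the membrane mucin, had 24.9 and 23.4 and the copper oxidase CP 2.17 and 1.97. The secretoglobins SCGB1A1, SCGB3A1 and SCGB3A2, the mucin MUC5B, the folding factor AGR2 and the IgA transporter PIGR had no read in either library.

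The ciliated list had 4 of 12 members present, none above a per-length level of 2, and 1 at a threshold of 50 reads or at a per-length level of at least 1. CCDC40, an assembly factor of axonemes, had 1.67 and 1.25, RFX3 0.898 and 0.730, the dynein DNAH5 0.726 and 0.706 and CAPS 0.557 and 0.868. RSPH1 and CCDC39 were low, at 0.940 and 1.68 and at 0.319 and 0.389. FOXJ1, the master factor of motile cilia, had 1 and 0 reads, and DNAI1, TPPP3, SNTN and TEKT1 were near zero too. C1orf88, the table's name for PIFO, had none. Among basal and squamous markers 4 of 19 were present, or 1 at either of those thresholds, led by S100A2 at 13.5 and 14.5. TP63, the basal cell factor, had 13 and 12 reads, SOX2 had 12 and 23, and KRT5, KRT14, KRT6A and KRT17 had none.

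Among genes of neuroendocrine cells 2 members were abundant. SCG2, secretogranin II, a cargo protein of dense-core granules, had 17055 and 23817 reads and per-length levels of 988.5 and 1309. UCHL1, a ubiquitin hydrolase abundant in neurons and neuroendocrine cells, had 4503 and 4770 reads, at 573.6 and 576.2 per length. SYP, a synaptic vesicle protein, was at 14.6 and 16.9, the Notch ligand DLL3 at 5.89 and 6.98 and NCAM1 at 4.94 and 5.19. Factors of such lineages were among the near zero members. NEUROD1, INSM1 and POU2F3 had no read in either library. The granule proteins CHGA and CHGB had 7 and 3 and 12 and 23 reads. In total 7 of 17 of the list were present.

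Markers of gut, stomach and liver were present in 5 of 31 cases, or 2 at a threshold of 50 reads, all at per-length levels below 3. GATA6, a foregut factor, had 2.10 and 2.37, PDX1 1.73 and 1.75 and GATA4 1.44 and 1.58. HNF4A, CDX2, TFF1 and KRT20, which mark gastrointestinal differentiation, had no read in either library.

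Among foregut and epithelial regulators 17 of 24 were present, or 11 at a threshold of 50 reads. The inhibitors of basic helix-loop-helix factors led the list, ID3 at 617.9 and 617.4 and ID1 at 200.5 and 222.4, followed by SOX4 at 118.5 and 135.8. FOXA1, a pioneer factor of endoderm, stood at 14.03 and 13.6, and SOX9 at 16.3 and 12.4. KLF5, an epithelial factor, was at 33.3 and 28.5. Of the grainyhead and OVO-like factors, which act in epithelial barriers, GRHL1 was present at 2.30 and 2.62 and OVOL2 at 2.11 and 1.73. Others of the list were near zero, with GRHL2 at 1 and 0 reads, GRHL3 at 1 and 0, ELF3 at 0 and 2, EHF at 2 and 0 and OVOL1 at 3 and 0.

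Genes of the mesenchymal state were present in 13 of 18 cases, beside 54.8% of all genes. VIM, the intermediate filament vimentin, had 13300 and 14062 reads and per-length levels of 930.1 and 932.5. AXL, a receptor kinase, followed at 111.04 and 99.4, and CD44, a hyaluronan receptor, at 102.1 and 87.8. The transcription factors TWIST1, SNAI1, ZEB1 and TWIST2 were present, with TWIST1 highest at 23.8 and 25.3 and ZEB1 at 9.91 and 9.19. SNAI2, at 8 and 8 reads, ZEB2, at 12 and 7, and PRRX1, at 2 and 1, were not. Secreted members of the list differed widely. TGFBI, a matrix protein, was at 77.6 and 77.7 and LOXL2, a matrix cross-linking enzyme, at 72.5 and 71.8, while FN1, fibronectin, was at 2.48 and 3.59, SPARC had 2 and 0 reads and LOX 8 and 9.

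Markers of other cell types that a culture could hold were scarce. The fibroblast and smooth muscle list had a summed per-length level of 40.1 and 40.1, with 7 of 15 members present. Highest were ACTA2 at 10.3 and 11.4, TAGLN at 10.3 and 8.91 and COL3A1 at 8.86 and 10.2. COL1A1 was at 5.19 and 4.82, MYH11 at 3.62 and 3.37, POSTN at 1.06 and 1.01 and PDGFRA at 0.386 and 0.258. DCN, THY1 and CNN1 had no read, and LUM, DES, FAP and PDGFRB had at most 2 in a library.

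The endothelial list summed to 14.9 and 13.1, of which SOX18 alone was 14.02 and 12.4. PECAM1 had 0 and 1 reads, CDH5 8 and 4, VWF 3 and 2, ESAM 5 and 5, TIE1 1 and 1, and EMCN, ERG, ROBO4 and PLVAP none. The leukocyte list summed to 59.6 and 70.2, of which CD68, a lysosomal protein also made outside macrophages, was 57.2 and 68.3. PTPRC, the leukocyte antigen CD45, had 8 and 3 reads, and CD14, CD3E, TYROBP and SPI1 had none. SOX18 and CD68 were the only members of these 2 lists that were present.

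In the neuron and glia list 11 of 24 members were present, which became 6 at a threshold of 50 reads and 7 at a per-length level of at least 1. TUBB3, the neuronal tubulin, had per-length levels of 220.9 and 210.5, and MAP2, a microtubule protein of dendrites, 52.6 and 48.96. MBP, whose gene also encodes products outside myelin, had 40.7 and 36.6. Other present members were lower, with SLC1A3, an astrocyte glutamate carrier, at 12.7 and 9.85, NEFL at 8.30 and 5.62, GAD1 at 4.89 and 4.71, SLC17A7 at 0.954 and 2.05, OLIG1 at 0.984 and 1.99, RBFOX3 at 1.38 and 1.30, SNAP25 at 1.02 and 0.828 and SYN1 at 0.588 and 0.515. Several other markers of these cells were under the threshold for present, with GFAP at 1 and 0 reads, STMN2 at 0 and 1, SLC1A2 at 3 and 5, and ELAVL4, MOG, OLIG2 and SOX10 with none. In the pluripotency and germline list PRAME, a cancer-testis antigen, was at 129.8 and 135.7, and it was the only 1 of 21 members present. Some other members, among them the MAGEA and CTAG genes, have similar copies, and reads that match several copies may be missing from each. POU5F1 had 2 and 4 reads and NANOG 0 and 1.

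**Figure D2:**
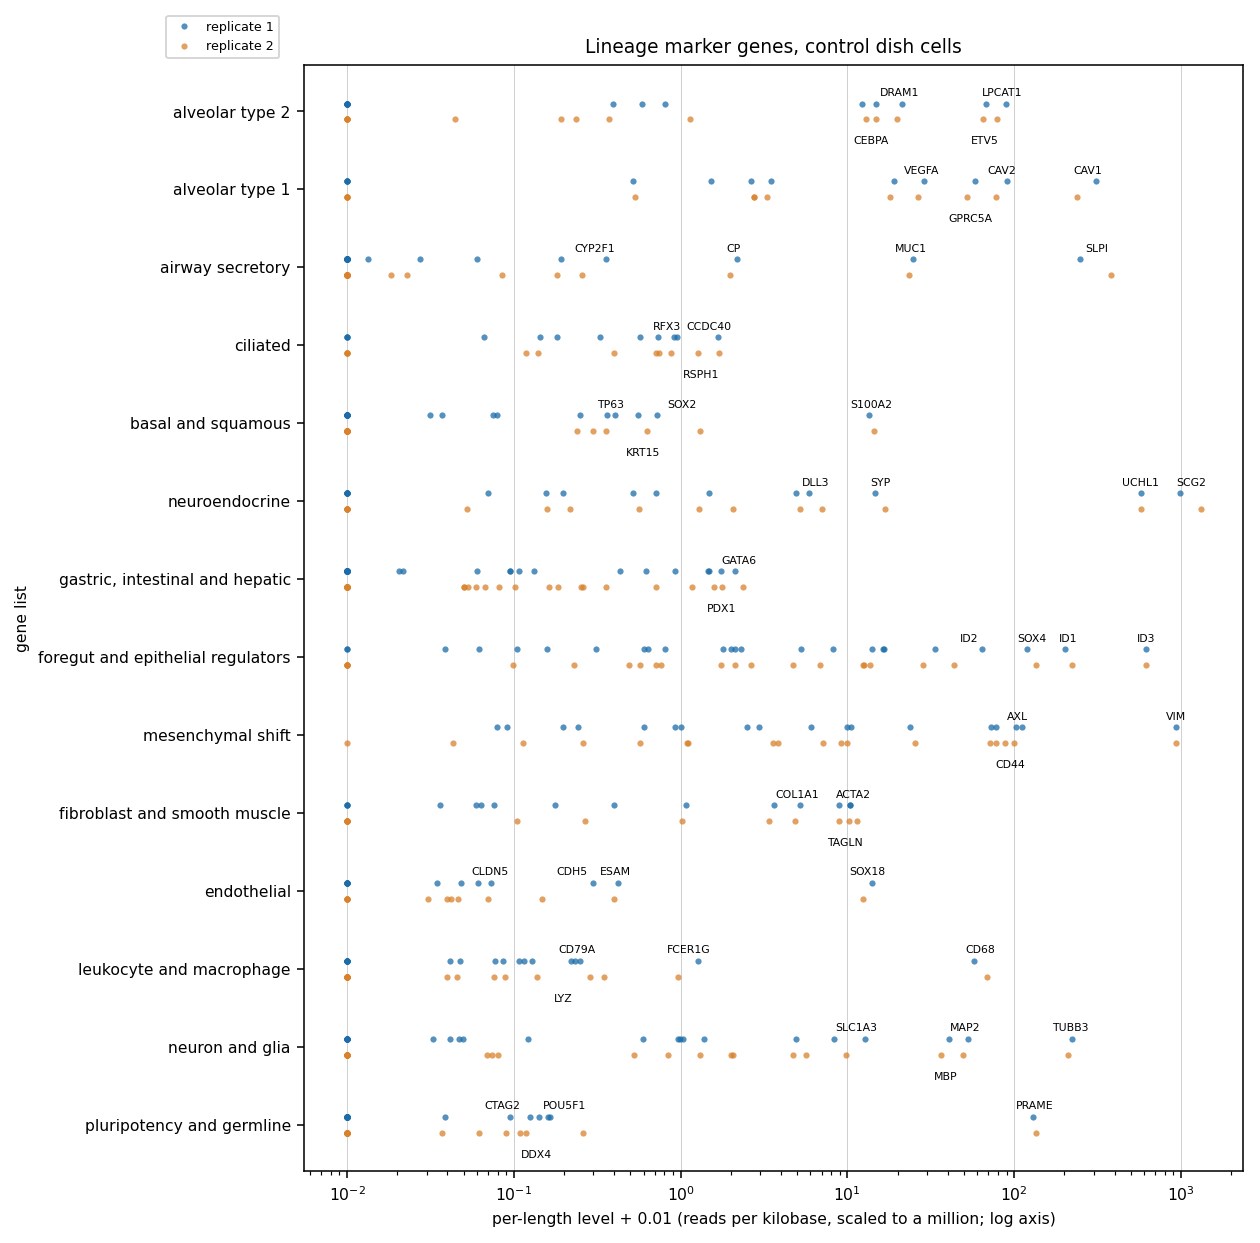
Per-length level plus 0.01 of every member of the 14 lineage marker lists, on a log axis, with replicate 1 in blue and replicate 2 in orange. Points at the left edge had no read, and up to 4 leading members of a list are named where space allows. SCG2 and UCHL1 stand far above the rest of the neuroendocrine list, VIM leads the mesenchymal list at 930.1 and 932.5, and SOX18 and CD68 stand alone in theirs.

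Filament families had few members in use. Of the keratins 6 of 56 were present. KRT18 and KRT8, the pair of simple epithelia, had per-length levels of 586.5 and 552.2 and of 388.7 and 381.2, and KRT18 made 55.3% and 55.2% of the family's summed level. KRT80 was at 44.4 and 29.6. KRT7, usual in lung adenocarcinoma, had 10 and 9 reads, and KRT19 was near zero with 0 and 1. The hair keratin-associated proteins had 0 of 88 present.

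Cells receive growth signals through receptor tyrosine kinases, and 37 of 58 of these were present, beside 54.8% of all genes. EPHA2, a receptor of A-type ephrins, led per length at 123.8 and 103.8, followed by AXL at 111.04 and 99.4 and MET, the receptor of hepatocyte growth factor, at 81.7 and 68.9. RYK, a Wnt receptor with an inactive kinase, was at 67.8 and 67.5 and EPHB4 at 58.9 and 56.3. EGFR was at 31.1 and 22.3, ERBB2 at 21.7 and 24.1 and IGF1R at 26.4 and 22.1. ERBB3, with 114 and 115 reads, was below both of its partners EGFR and ERBB2 per length, at 2.88 and 2.75.

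Among kinases best known from vascular, stromal and blood lineages, FLT4 was present at 6.86 and 6.72 and PDGFRA at 0.386 and 0.258. FLT1 and KIT were low, with 8 and 8 and 13 and 9 reads, and KDR, at 1 and 0, TEK, at 0 and 1, PDGFRB, at 1 and 0, and CSF1R, at 1 and 1, were near zero. NTRK3 and MUSK had 0 and 1 and 0 and 0. Of the kinases that carry rearrangements in lung cancer, ALK had 42 and 59 reads, ROS1 23 and 7 and RET 12 and 40. Each of these 3 stayed below a per-length level of 2.

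Among the ligands of the EGF family 7 of 11 were present. HBEGF was at 27.7 and 22.8, NRG4 at 18.2 and 12.5, AREG at 11.3 and 12.8, NRG2 at 5.41 and 4.94 and TGFA at 5.02 and 4.34. BTC and NRG1 were lower, at 1.17 and 1.81 and at 0.705 and 0.645. EPGN and EREG had 4 and 2 and 9 and 8 reads, EGF had 0 and 3 and NRG3 none. The receptor EGFR and its ligands HBEGF, AREG, TGFA and BTC were therefore present in the same libraries.

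Eph receptors and ephrins were both found, with 9 of 14 of the receptors and 7 of 8 of the ephrins present, beside 54.8% of all genes. EFNA1, a ligand of EPHA2, led the ephrins at 104.03 and 103.3, or 51.6% and 48.7% of their summed level. EFNA4 was at 42.8 and 48.3 and EFNA3 at 19.7 and 24.5. The B-type ephrins were lower, EFNB1 at 5.68 and 5.34, EFNB2 at 0.502 and 0.222 and EFNB3 at 0.556 and 0.439. Semaphorins had 15 of 20 members present, led by SEMA3C, a secreted guidance cue, at 273.9 and 276.8, and by SEMA6B at 110.95 and 113.6 and SEMA4B at 89.8 and 114.8. Their receptors were lower per length. NRP1 was at 42.7 and 36.2 while NRP2 had 2 and 4 reads, and of 9 plexins PLXNB2 and PLXNA1 led at 27.7 and 28.1 and at 26.5 and 24.1.

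Of the cytokine receptors 30 of 48 were present. OSMR, the oncostatin M receptor, had 5355 and 5854 reads and per-length levels of 144.3 and 149.6. IL6ST, the signalling chain gp130 that OSMR and LIFR share, was at 115.4 and 87.2, and IL13RA1 at 81.5 and 95.6. Both interferon gamma receptor chains were present, IFNGR1 at 52.3 and 52.9 and IFNGR2 at 49.5 and 55.1. Several chains known from lymphocytes and myeloid cells were near zero. IL2RG had 2 and 0 reads, IL7R 2 and 1, CSF3R 0 and 1, and IL2RA, CSF2RA and CSF2RB none.

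TNF receptors had 11 of 29 present and 13 near zero. TNFRSF12A, the TWEAK receptor, led at 328.1 and 286.3, before TNFRSF1A, the main receptor of TNF, at 129.6 and 125.2 and TNFRSF21 at 81.5 and 85.5. The death receptors TNFRSF10B, TNFRSF10A and FAS were present, at 59.5 and 55.4, at 43.02 and 36.2 and at 32.3 and 36.6. CD40, LTBR and TNFRSF14 had no read in either library.

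Innate sensing genes were thin. Of the sensors 10 of 26 were present, led by NLRX1, a mitochondrial member of the NOD-like family, at 16.9 and 19.2, TLR6 at 11.2 and 9.10 and the adaptor MAVS at 7.88 and 6.37. The cytosolic RNA sensors IFIH1 and DDX58 were at 6.40 and 7.13 and at 5.83 and 5.20. The DNA sensing pair was near absent, with MB21D1, the cyclic GMP-AMP synthase, at 0 and 3 reads and TMEM173, the adaptor STING, at 5 and 1. MYD88, the adaptor of most Toll-like receptors, had 7 and 10 reads. TLR2, TLR4, NLRP3 and AIM2 had none. Of the caspases 7 of 12 were present, and the inflammatory ones CASP1, CASP4 and CASP5 were near zero while CASP8 was at 55.4 and 54.6.

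TGF-beta family receptors had 11 of 15 members present. TGFBR2 was at 40.7 and 33.2, ACVR1 at 23.1 and 20.7, TGFBR1 at 14.3 and 11.6, BMPR2 at 10.9 and 9.66 and ACVR1B at 10.5 and 10.5. BMPR1A was at 5.94 and 5.66, ACVR2B at 3.41 and 3.22, BMPR1B at 3.22 and 3.41, ACVR2A at 3.23 and 2.62, BAMBI, a decoy, at 2.78 and 2.11 and TGFBR3 at 1.80 and 1.58. ENG, ACVRL1 and AMHR2, receptors of endothelium and gonads, had 7 and 4, 1 and 0 and 0 and 1 reads. ACVR1C had 6 and 12.

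Ligands of that family were present too. TGFB1, TGFB2 and TGFB3 were all present, at 60.1 and 61.3, at 50.6 and 53.6 and at 23.98 and 21.02. BMP6 was at 59.3 and 65.5, BMP7 at 35.6 and 35.6 and BMP5 at 17.001 and 17.9. FSTL3, an antagonist of activins, led the list at 73.4 and 68.005. FST, INHBA and GREM1 were near zero, with 0 and 1, 2 and 2 and 0 and 0 reads.

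Notch and Wnt receptors had 20 of 24 present. LRP5, the Wnt co-receptor, led at 86.2 and 85.3, then FZD6 at 47.9 and 43.4 and SMO, which transmits hedgehog signals, at 33.4 and 38.2. LGR5, the stem cell receptor of R-spondins, had no read, and its relative LGR4 was at 16.3 and 16.6. RSPO3, a ligand of LGR4, had 5476 and 5132 reads and per-length levels of 303.1 and 269.4. DKK1, an inhibitor of LRP5 and LRP6, was at 81.99 and 82.5. The Wnt ligands themselves had lower levels, with 7 of 19 present, 4 of them at a per-length level of at least 1, the highest on average being WNT10B at 5.71 and 4.36 and WNT7B at 5.52 and 3.58. In both libraries the R-spondin and the Dickkopf protein thus stood above every Wnt ligand.

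Nuclear receptors had 35 of 49 members present, led on average by NR4A2, an immediate-early orphan receptor, at 109.05 and 137.5, with NR2F6 at 112.3 and 115.4 and NR1H2 at 73.8 and 74.5. AHR, the aryl hydrocarbon receptor, was at 71.6 and 70.1. ESR1 and PGR, the receptors of oestrogen and progesterone, had 0 and 1 and 1 and 0 reads. Uptake receptors had 18 of 24 present, with TFRC, the transferrin receptor, at 317.3 and 255.7, LRP10 at 207.5 and 223.7 and SCARB2 at 134.7 and 144.2. MSR1, OLR1 and MRC1, scavenger receptors of macrophages, had none.

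Among G protein-coupled receptors for purines, lipids, proteases and chemokines, 32 of 72 were present. GPR126, an adhesion receptor that binds laminin and collagen IV, led at 167.2 and 163.4. F2RL2, a protease-activated receptor, was at 150.3 and 117.05 and CD97 at 98.2 and 89.1. Chemokine receptors were nearly empty, 1 of 19 present and 0 at a threshold of 50 reads, and that member, CXCR5, stood at only 0.573 and 0.383. CXCR4, a receptor often studied in metastasis, had no read in either library, and CXCR7 had 0 and 1. Of the neurotransmitter receptors 14 of 50 were present, or 6 at a threshold of 50 reads, with the acetylcholine receptor chain CHRNB1 first on average, at 28.1 and 29.4. No AMPA receptor chain was present, with GRIA1 to GRIA4 at no more than 3 reads in a library. Olfactory receptors are used mainly in sensory cells, and 375 of 375 were near zero.

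Integrins showed a small set of chains at high levels. ITGB1, the beta chain that most matrix-binding integrins share, had 10873 and 11404 reads and per-length levels of 429.02 and 426.7, which was 67.6% and 65.3% of the summed level of the 8 beta chains. ITGB5 was at 141.5 and 155.5 and ITGB4 at 60.1 and 68.2. ITGB2 was at 3.08 and 2.25, ITGB7 at 0.417 and 0.395, ITGB3 at 0.411 and 0.390 and ITGB8 at 0.119 and 0.210. ITGB6, an epithelial chain that activates TGF-beta, had 2 and 1 reads. The alpha chains were led by ITGA6 at 175 and 162.6 and ITGA3 at 107.5 and 107.4, both laminin receptors, then ITGAV at 62.1 and 56.7 and ITGA5, of the fibronectin receptor, at 52.5 and 58.1. The leukocyte chains ITGAL, ITGAM and ITGAX had 1 and 2, 1 and 1 and 0 and 0 reads.

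Laminins, the matrix proteins that ITGA6 and ITGA3 bind, had 9 of 12 chains present. LAMB1 and LAMC1 led at 135.4 and 149.4 and at 102.5 and 105.4, followed by LAMB2 at 50.2 and 55.7 and LAMA5 at 47.6 and 48.5. LAMB3 was at 42.3 and 41.7 and LAMA3 at 5.41 and 5.35. Among basement membrane genes AGRN, a heparan sulfate proteoglycan, was at 86.4 and 96.2 and COL4A5 at 29.8 and 29.9. LAMA4 and LAMA1 were near zero, with 0 and 1 and 3 and 3 reads.

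E-cadherin and N-cadherin were scarce. CDH1, E-cadherin, had 28 and 32 reads, a per-length level of 0.855 and 0.927, and CDH2, N-cadherin, had 29 and 33, at 0.9995 and 1.08. The abundant members were FAT1, a giant atypical cadherin, at 73.3 and 64.9, CDH11, a cadherin of mesenchymal cells, at 51.2 and 54.1, and CDH4 at 26.98 and 27.02. CDH24 was at 19.7 and 22.5. CDH3 and CDH5 were under the threshold for present, with 4 and 5 and 8 and 4 reads. In both libraries CDH11 was therefore far above CDH1 and CDH2 per length.

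The catenins that link cadherins to actin were abundant. CTNNAL1, a relative of alpha-catenin, was at 371.96 and 346.5, CTNNA1 at 315.6 and 317.2, CTNNB1 at 192.3 and 184.4 and JUP at 14.7 and 15.4. CTNND1, p120-catenin, had only 47 and 56 reads, at 1.11 and 1.26. The table also holds TMX2-CTNND1, a readthrough symbol over the same exons, at 0 and 0 reads, and how reads on both were counted is not given in the sources used here. CTNNA2, CTNNA3 and CTNND2, the neural and cardiac members, had 13 and 6, 2 and 4 and 0 and 1 reads.

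Desmosome genes were present in 9 of 15 cases, beside 54.8% of all genes. PERP, a p53 target of the membrane, was at 138.1 and 150.2, DSP, desmoplakin, at 104.2 and 82.7 and PKP3 at 45.7 and 42.3. DSG2 was at 39.2 and 33.8, PKP4 at 30.5 and 26.8, PKP2 at 17.3 and 16.8, EVPL at 10.8 and 11.9, PPL at 5.05 and 5.70 and DSC2 at 2.31 and 1.75. The skin members DSG1, DSG3, DSC1, DSC3, DSG4 and PKP1 had at most 1 read in a library. So 9 desmosome genes were present above the per-length level of CDH1, which stayed below 1.

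Tight junction partners had 11 of 12 present. F11R, the junction molecule JAM-A, was at 96.6 and 116.5, TJP1, the scaffold ZO-1, at 76.8 and 71.7, CXADR at 41.7 and 36.3 and OCLN, occludin, at 20.7 and 18.6. TJP3 was at 11.01 and 12.97, MARVELD2 at 10.99 and 10.3, JAM3 at 9.62 and 10.8, MARVELD3 at 3.33 and 3.35, and CGN, with 87 and 86 reads, was also present, as was CGNL1 at 0.372 and 0.529. JAM2 had 1 and 4 reads. Claudins, which set the tightness of the seal, had 7 of 21 members present and 10 near zero, beside 54.8% of all genes present. At a threshold of 50 reads 5 were present. CLDN1 was at 62.3 and 61.3, CLDN12 at 42.3 and 45.8 and CLDN7 at 8.70 and 11.04. CLDN4, common in lung epithelium, had 8 and 6 reads, CLDN18 2 and 1, and CLDN5, of vessel walls, 1 and 1.

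Gap junctions, which let small molecules pass between cells, had 8 of 22 connexins and pannexins present. GJA1, connexin 43, which is known to join tumour cells to astrocytes, had 2100 and 1982 reads and per-length levels of 99.5 and 89.03. GJB2, connexin 26, was at 60.2 and 57.7, GJD3 at 41.3 and 43.8 and PANX1 at 32.2 and 31.2. GJB1 and GJA4 had no read in either library.

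L1CAM, a neural adhesion molecule that an shRNA targets in other groups of the study, was present here with 493 and 467 reads and per-length levels of 14.3 and 12.9. In its list of neural adhesion molecules it stood behind CADM4 at 52.9 and 50.96 and near NLGN2 at 12.1 and 16.7 and CADM1 at 12.8 and 12.6. Its order against NLGN2 changed between the 2 libraries. Of its own family NRCAM had 36 and 30 reads, CHL1 5 and 12 and NFASC 77 and 96, all below L1CAM per length. The list had 11 of 27 members present, and DSCAM, CNTN2 and CNTN6 had no read.

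Other surface molecules were led by BSG, basigin, a partner of lactate transporters, at 1091.5 and 1037.5, and by the tetraspanins CD63 at 495.6 and 485.1 and CD9 at 328.9 and 330.8. The syndecans SDC4 and SDC1 were at 300.7 and 270.5 and at 167.6 and 152.8. EPCAM, an epithelial marker, was at 6.93 and 10.5. CD24, ICAM1 and VCAM1 had 3 and 3, 4 and 15 and 0 and 0 reads. 

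**Figure D3:**
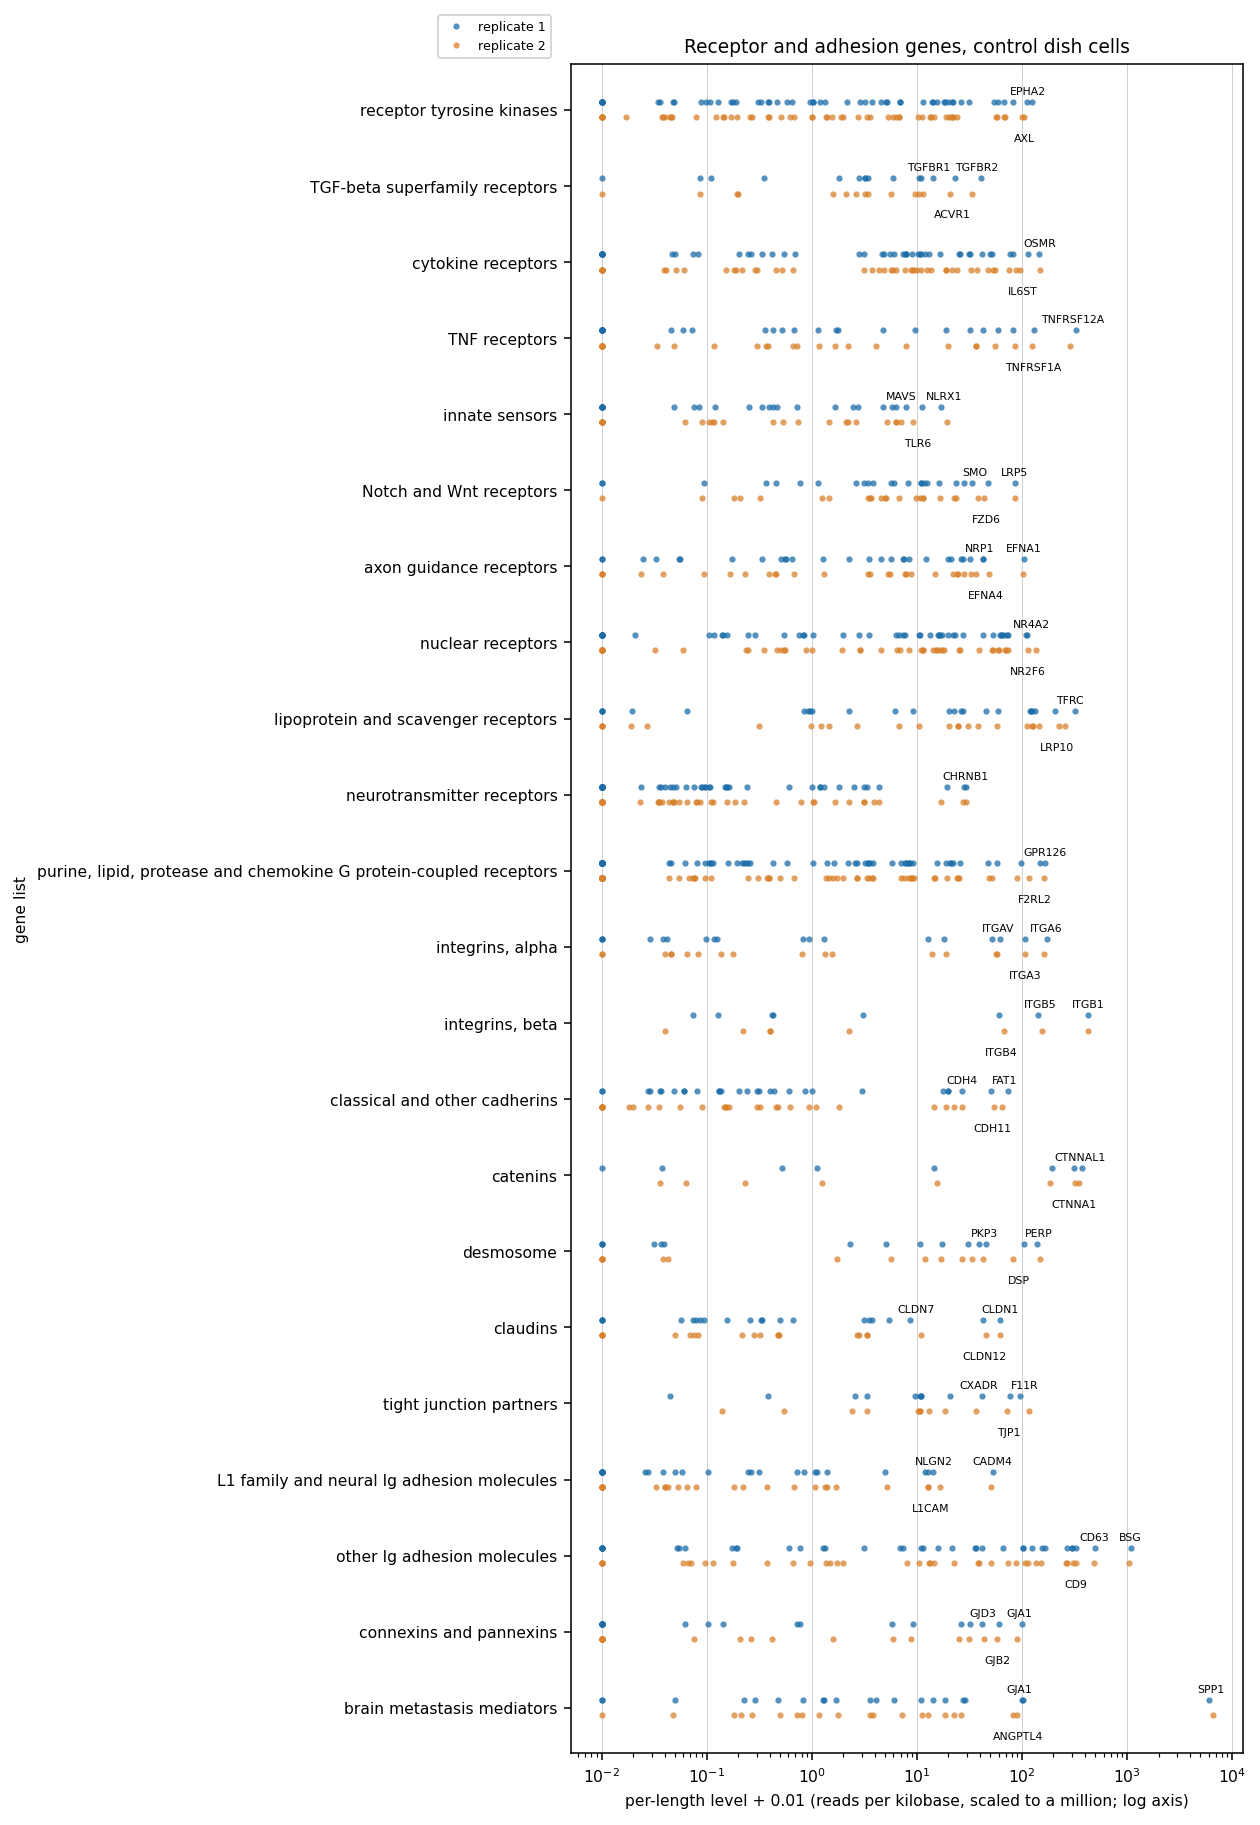
Per-length level plus 0.01 of every member of 11 receptor lists and 11 adhesion lists, on a log axis, with replicate 1 in blue and replicate 2 in orange. Points at the left edge had no read, and up to 3 leading members of a list are named where space allows. SPP1 is the rightmost point, ITGB1 leads the integrin beta chains at 429.02 and 426.7, and neurotransmitter receptors and innate sensors have no member above 50.

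Genes reported as mediators of brain metastasis had 15 of 21 members present. SPP1 was highest of them. ANGPTL4, an inhibitor of lipoprotein lipase that loosens vessel walls, was at 102.7 and 82.7, near GJA1 at 99.5 and 89.03. PCDH7, a protocadherin that pairs with connexin 43, was at 18.7 and 18.4, VEGFA at 28.8 and 26.6 and HBEGF at 27.7 and 22.8. SERPINI1, neuroserpin, which inhibits plasminogen activator, was at 11.04 and 11.3, and TWIST2 at 6.06 and 7.16.

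The remaining members stood below a per-length level of 5. HOXB9 was at 4.05 and 3.79, SPOCK1 at 3.57 and 3.59, PTGS2, cyclooxygenase-2, at 1.69 and 1.79, MMP9 at 1.28 and 1.15, MMP1 at 1.29 and 0.719 and LEF1 at 0.816 and 0.489. SERPINA3 had 5 and 9 reads, SERPINB2 4 and 4 and CTSS 6 and 5, which puts them under the threshold for present. ALDH1A1 had 0 and 3 reads, ST6GALNAC5, a sialyltransferase, 1 and 1, and MMP2, gelatinase A, none in either library.

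Serpins, plasminogen activators and coagulation inhibitors, not all of them secreted, were led by a few members. Among serpins 8 of 35 were present. SERPINH1, the collagen chaperone HSP47, led at 345.9 and 302.1, then SERPINE2, protease nexin 1, at 124.95 and 125.5 and SERPINB6 at 76.2 and 91.2. PLAUR, the urokinase receptor, was at 194.9 and 215.6 while its ligand PLAU was at 4.16 and 4.53, and PLAT had 2 and 4 reads. TFPI, a coagulation inhibitor related to TFPI2, was at 213.2 and 241.8. F3, tissue factor, was at 3.53 and 3.90, and THBD and PROCR had 6 and 0 and 3 and 0 reads.

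TIMP1, an inhibitor of metalloproteases, had 6501 and 9910 reads and per-length levels of 1088.2 and 1572.9, the higher in replicate 2. TIMP2 was at 46.9 and 60.3, while TIMP3 and TIMP4 had 1 and 0 and 0 and 0 reads. Of the metalloproteases 9 of 24 were present, or 5 at a threshold of 50 reads, and MMP14, a membrane-bound collagenase, made 71.8% and 71.4% of their summed level, at 242.96 and 284.6. The next were MMP17 at 42.6 and 45.6 and MMP15 at 28.7 and 37.1. All 3 are anchored in the membrane. Of the secreted enzymes MMP11 was at 11.8 and 19.8, MMP9 and MMP1 were at the levels given above, and MMP2, MMP3, MMP7 and MMP13 were near zero. Cathepsins had 10 of 16 present, with CTSL1 at 1134.8 and 1146.7, CTSZ at 581.2 and 568.5 and CTSD at 380.8 and 369.3. The sheddases ADAM15, ADAM9 and ADAM17 were at 177.9 and 184.6, at 172.2 and 159.7 and at 69.9 and 68.6.

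The matrix list was dominated by SPP1, with THBS1, thrombospondin 1, next. THBS1 had 9709 and 6328 reads, at 186.4 and 115.2, and was the higher in replicate 1. TGFBI was at 77.6 and 77.7 and LTBP4 at 45.2 and 55.9. Of the collagen chains 20 of 43 were present, or 12 at a threshold of 50 reads, led by the basement membrane chain COL4A5, then COL6A2 at 22.5 and 26.1 and COL6A1 at 10.6 and 12.96. COL1A2, the second chain of collagen I, had 6 and 0 reads and DCN and BGN had none.

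Chemokines were present in 7 of 33 cases and near zero in 24. IL8, a neutrophil attractant, had 3053 and 3239 reads and per-length levels of 267.4 and 268.96. CCL2, a monocyte attractant, was at 72.7 and 78.3, CXCL16 at 40.2 and 45.1, CXCL1 at 32.5 and 34.7, CXCL2 at 30.6 and 30.8 and CCL20 at 24.7 and 29.7. The interferon-induced CXCL9 and CXCL10 had no read, and CXCL11 and CCL5 had 0 and 1 and 1 and 1. The present chemokines named here were thus those for neutrophils and monocytes, together with CCL20, which attracts cells with CCR6, and CXCL16, a ligand of CXCR6. The remaining present member of the list is not described.

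Interleukins and colony factors had 11 of 53 members present, or 6 at a threshold of 50 reads. MIF, a widely made cytokine, led at 1462.8 and 1526, followed by IL18 at 181.5 and 179.2 and IL6 at 52.4 and 64.4. LIF, which shares the receptor chain IL6ST, was at 32.7 and 30.2, and CLCF1 at 14.7 and 11.1. IL1A, IL1B, TNF and CSF3 were near zero, with 3 and 0, 0 and 0, 0 and 1 and 0 and 0 reads. Of 18 interferon genes none was present, and IFNE, with 5 and 5 reads, was the only 1 above near zero.

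Other growth factors had 17 of 38 present. CTGF and CYR61, matricellular targets of YAP1 and WWTR1, led at 526.3 and 519.4 and at 444.3 and 442.1. After ANGPTL4 came VEGFB at 33.8 and 42.99 and GAS6, the ligand of AXL, at 25.8 and 32.8. PROS1, a second ligand of the same receptor family, was at 21.8 and 32.5, and BDNF, a neurotrophin, at 21.5 and 21.5. HGF, the ligand of MET, had 1 and 3 reads, and IGF1, a ligand of IGF1R, had none. AXL and its ligand GAS6 were therefore both present, while MET was present and HGF near zero.

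All 34 members of the RAS and MAP kinase list were present. The adaptor SHC1 led at 435.8 and 404.04, the feedback phosphatase DUSP4 was at 158.5 and 159.04, and MAP2K2, a MEK kinase, at 145.2 and 148.5. The Hippo list had 20 of 23 present, with TEAD1 at 111.3 and 93.4, YAP1 at 85.6 and 94.6 and its partner WWTR1 at 88.6 and 81.8 under the targets CTGF and CYR61 named above.

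Among tumour suppressors and cell cycle genes 24 of 26 were present, led by PCNA at 246.8 and 241.4, CDK4 at 257.04 and 224.5 and CDKN2A at 222.6 and 234.9. SMARCA4, an ATPase of the SWI/SNF complex, had 14 and 17 reads, at 0.361 and 0.416 per length. Its paralog SMARCA2, named after its value was seen, had 137 and 127, at 3.49 and 3.06. CCND1, cyclin D1, was at 119.5 and 98.1, whereas CCND2 had 1 and 4 reads and MYCN none. MYC was at 150.1 and 136.3, and STK11, a kinase upstream of AMPK, at 10.2 and 11.1.

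Targets of NRF2, the factor that answers oxidative stress, were abundant. NQO1 and TXNRD1 led the list, followed by TXN, thioredoxin, at 1848 and 1899.3 and PRDX1, a peroxiredoxin, at 1458.1 and 1432.1. HMOX1, haem oxygenase, was at 715.96 and 513.8, SRXN1 at 652.6 and 632.02 and SLC7A11, the cystine carrier, at 107.8 and 91.8. The subunits of glutamate-cysteine ligase, GCLC and GCLM, were at 95.7 and 91.97 and at 72.3 and 57.1. KEAP1, which holds NRF2 in check, was at 128.1 and 101.6. The list was not uniform. AKR1C1 and AKR1C2 had 3 and 4 and 5 and 6 reads, AKR1B10 45 and 36, GPX2 5 and 7 and ALDH3A1 1 and 1. In all 28 of 36 members were present. The AKR1C genes are near-identical copies, so reads that match several of them may be missing from each.

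NRF2 binds the antioxidant response element, whose core is TGACNNNGC. The window from 250 bases before to 50 bases after the RefSeq start was searched for it on both strands, and 14.3% of all 14060 windows held it. Of the 25 list members with a window, 6 held it (24.0%). The matches of present members are shown with the core in capitals and read on the strand of the gene, where the core may run in either direction.
TXNRD1, chr12:104215672-104215696, plus strand: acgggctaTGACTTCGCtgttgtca
PGD, chr1:10398855-10398879, plus strand: tcgccgggGCAATGTCAtctaggtg
AKR7A2, chr1:19312297-19312321, minus strand: caaggcccGCCGGGTCAgctgaccg
ME1, chr6:83431172-83431196, minus strand: tcctgccaTGACTCAGCgcttctcg
GCLM, chr1:93909448-93909472, minus strand: cgatttctGCTTAGTCAttgtcttc
Per-length levels of these 5 ran from TXNRD1 at 2125.2 and 1940.1 and PGD at 434.5 and 446.4 down to AKR7A2 at 81.1 and 79.1, ME1 at 74.4 and 70.5 and GCLM at 72.3 and 57.1. The windows are described here as matches only.

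Detoxifying families differed in how many members were present. Glutathione S-transferases had 7 of 18, cytochromes P450 18 of 55, aldo-keto reductases 6 of 12 and aldehyde dehydrogenases 11 of 18, beside 54.8% of all genes. GSTP1 made 73.999% and 73.96% of the summed level of the glutathione S-transferases, at 1485.9 and 1534.4, and GSTA1 and GSTM1 had no read. Among cytochromes P450, CYP24A1, which breaks down vitamin D, had 5748 and 9410 reads and was the higher in replicate 2, and CYP1B1, induced through AHR, had 6591 and 4793 and was the higher in replicate 1. Their per-length levels were 263.1 and 408.4 and 187.4 and 129.3. Of the 21 UDP glucuronosyltransferases none was present. The UGT1A genes share their last exons, and reads on shared exons may not have been counted. ALDH3A2 led the aldehyde dehydrogenases at 220.8 and 218.9, and MT2A made 85.5% and 87.4% of the metallothionein level, at 882.5 and 1092.5.

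Carriers of sugars and amino acids were abundant. SLC2A3 and SLC2A1, glucose carriers, were at 218.6 and 271.6 and at 121.1 and 104.1. LDHB stood above LDHA per length, at 1801.6 and 1776.6 against 965.97 and 892.7. SLC16A1, a lactate carrier, was at 81.6 and 81.7, while SLC16A3, the exporter of glycolytic cells, had 6 and 5 reads. SLC3A2 and SLC7A5, the 2 chains of the large neutral amino acid carrier, were at 448.6 and 416.7 and at 396.8 and 367.9, and SLC38A2 at 425.9 and 426.5.

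Antigen presentation was that of class I. B2M, the light chain, was at 1510 and 1716.1, HLA-B at 271.7 and 328.9 and HLA-C at 242.7 and 292.3. HLA genes are similar and variable, so the split between them is uncertain. Of class II, HLA-DRA had 0 and 1 reads, CD74 3 and 0 and the activator CIITA none. CD274, the ligand PD-L1, had 33 and 68 reads, a per-length level of 1.35 and 2.64, and CD276, a relative of it, was at 88.5 and 92.7.

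Noncoding transcripts were also recovered with the ribosomes. SNHG5 and ZNFX1-AS1, hosts of small nucleolar RNAs, had per-length levels of 639.6 and 812.6 and of 176.7 and 225.8, and SNHG6 of 178.1 and 219.6. MALAT1 and NEAT1, which are retained in the nucleus, had 286 and 282 and 652 and 790 reads over long transcripts, at 4.90 and 4.58 and at 4.28 and 4.92 per length. In all 25 of 34 of that list were present. The host genes named here thus stood far above these nuclear transcripts per length in both libraries, given the transcript lengths chosen. The libraries were poly-A-selected, and how far that selection lowers the counts of the nuclear transcripts was not tested. How much of the nuclear level is RNA carried along with the beads was not tested either.

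Transcription factor families differed in their share of present members, beside 54.8% of all genes. KLF factors had 14 of 17 present, led by KLF13 at 37.6 and 33.4. HOX genes had 19 of 39 present, or 10 at a threshold of 50 reads, led by HOXC8 at 33.8 and 32.98 and HOXC9 at 22.8 and 25.5. SOX factors had 9 of 19 and FOX factors 23 of 49 present. SOX4 and SOX15 led the SOX family at 118.5 and 135.8 and at 101.2 and 88.2, and FOXM1, a factor of dividing cells, led the FOX family at 65.7 and 55.99. Among MAGE genes MAGEA1, a cancer-testis antigen, was at 121.2 and 111.7 while MAGEA3, MAGEA4 and MAGEA6 were near zero. Reads that match several MAGEA genes may be missing from each, so these low counts are uncertain. Clustered protocadherins, of which each cell can use a few, had 30 of 55 present, or 17 at a threshold of 50 reads, led by PCDHB2 at 40.4 and 41.1. Members of the alpha and gamma clusters share their last exons, so their single values are uncertain.

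**Figure D4:**
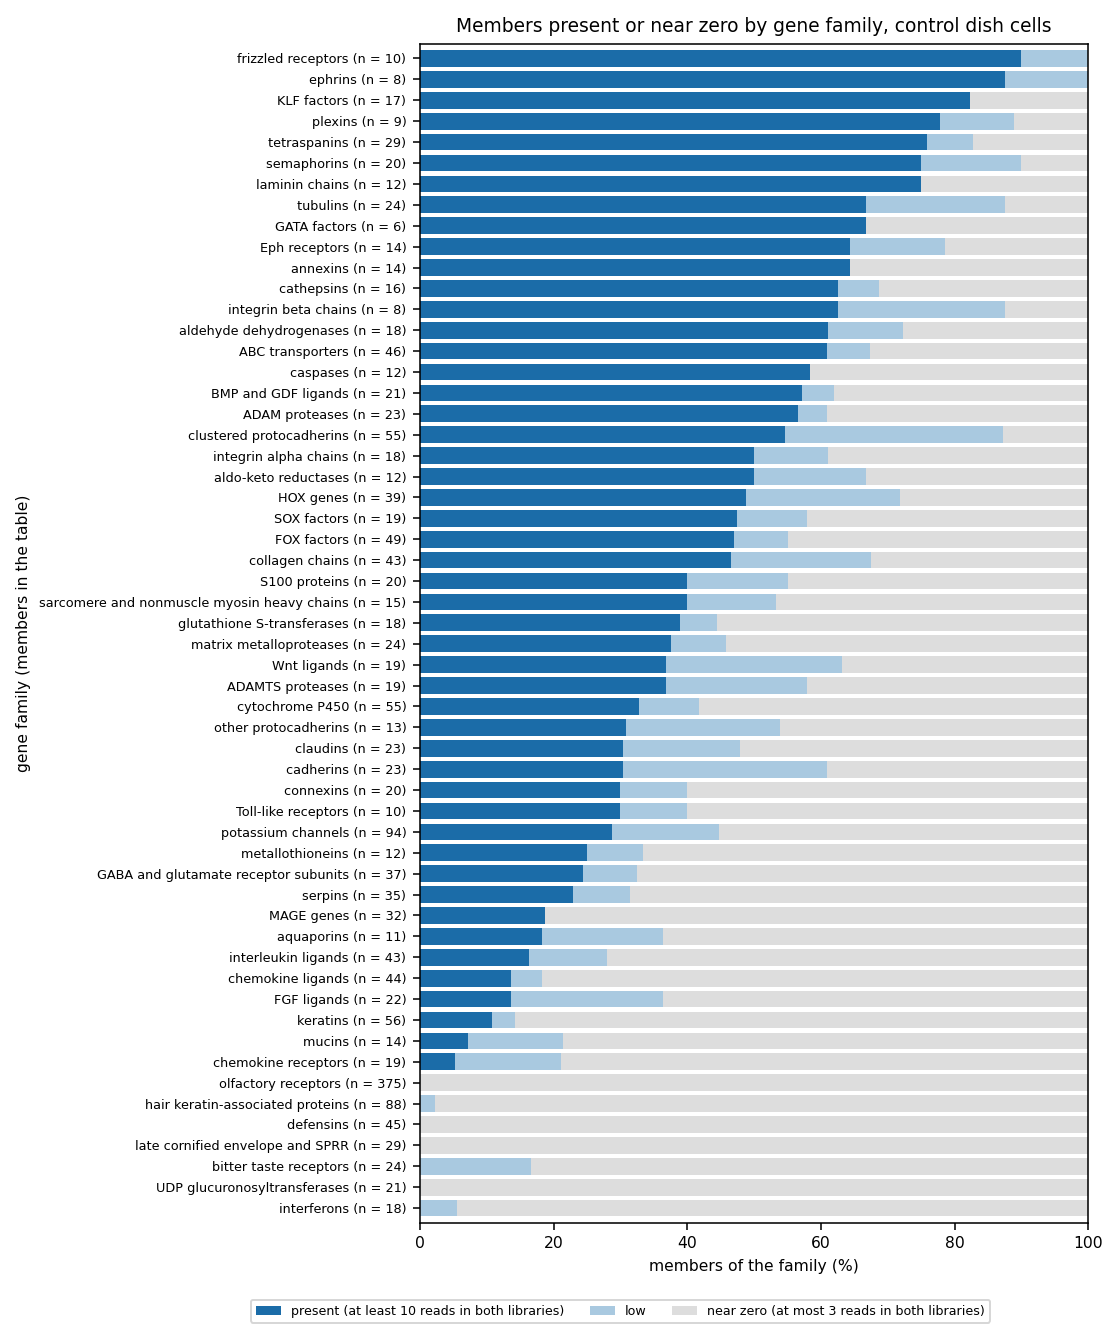
Members of 56 gene families that were present (at least 10 reads in both control dish libraries), low or near zero (at most 3 reads in both), as a percent of the members in the table. Frizzled receptors, ephrins and KLF factors lie at the top, chemokine receptors, mucins and keratins near the bottom, and 7 families have no member present.

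The 2 libraries agreed within a small spread. Over the 12962 genes with a mean normalized count of at least 10, the log2 difference of replicate 2 minus replicate 1, with a pseudocount of 1, had a median of -0.01 and an SD across genes of 0.28. The SD fell from 0.57 for genes with a mean of 10 to 30 to 0.15 for those above 3000. Counting error alone would give 0.51 and 0.03 in the same bins, so abundant genes differed by more than counting error and scarce genes by little more. The difference exceeded 1 in 126 genes, of which 3 had a mean of at least 100.

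The median difference between the libraries fell with transcript length. In the shortest of 10 equal groups of genes by length (median 1023 bases) the median difference was 0.10, and it fell to -0.07 in the longest (median 9292 bases). The shares of the gene classes did not all follow length. The summed share of cytosolic ribosomal proteins was higher in replicate 2 by 0.17 on the log2 scale, and that of HLA and peptide loading by 0.19. Sterol and fatty acid synthesis, whose share is smaller per length than by reads, was also higher in replicate 2, by 0.13. Heat shock proteins and glycolysis were lower in replicate 2, by differences of -0.11 on the same scale for each. Classes with a larger share per length than by reads were lower there too, the proteasome with a difference of -0.07 and actins, tubulins and their partners with -0.08. Single genes with shorter transcripts than the median also went both ways, with TMSB10 and TIMP1 higher in replicate 2 and GAPDH and HMOX1 lower. The cause of these differences was not tested.

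The 6 largest differences among genes with a mean normalized count of at least 50 were all just above 1 on the log2 scale. TTLL1, a tubulin polyglutamylase subunit, had normalized counts of 35.2 and 82.99, a log2 difference of 1.21. SUSD2 and PDK4, a pyruvate dehydrogenase kinase, were also higher in replicate 2, by 1.09 and 1.07. FAM13B had normalized counts of 709.2 and 306.5, a difference of -1.21. The histone HIST1H4H and CYP1A1, a target of AHR, were lower in replicate 2 too, with differences of -1.13 and -1.05.

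**Figure D5:**
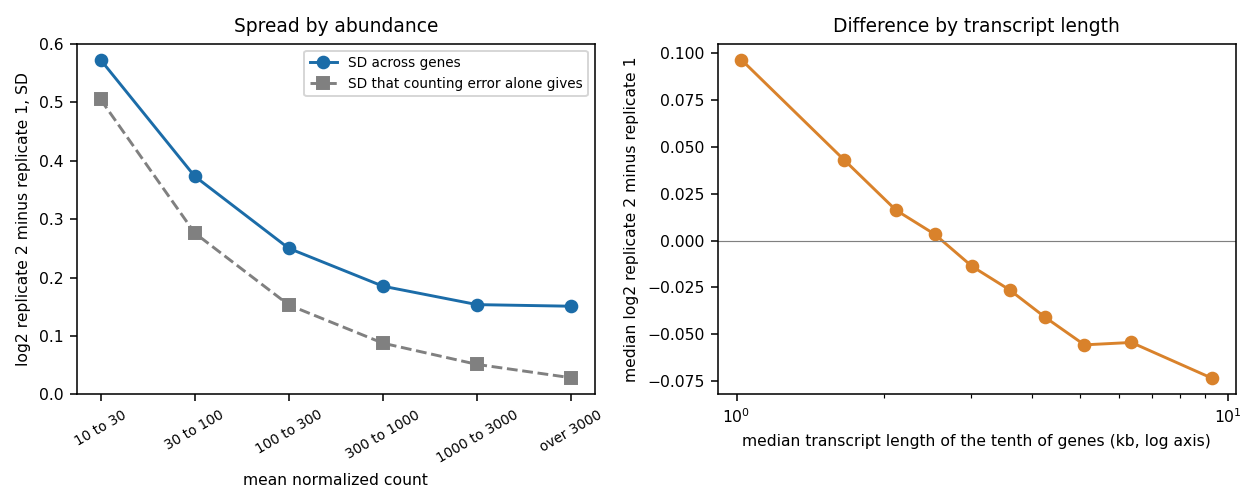
Left, how far the control dish libraries lay apart, as the SD of their log2 difference over genes in bins of mean normalized count (circles), beside the SD that counting error alone gives (squares). Right, median log2 difference, replicate 2 minus replicate 1, against the median transcript length in kilobases of 10 equal groups of genes, on a log axis. The SD falls from 0.57 to 0.15, and the median difference falls from 0.10 in the shortest group to -0.07 in the longest.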

How the data were processed

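Ribosome-bound RNA of 8 libraries was sequenced by the authors from poly-A-selected libraries that do not mark strand, made from 100 ng of RNA with an integrity number above 9.5, per the labels' protocols. The deposited signal values are gene counts that the authors divided by a size factor for each library, and both columns gave whole reads back for 100.0% of values (tolerance 1e-06). FastQC 0.11.3, HTSeq 0.5.4, DESeq2 and builds hg19 and GRCh37 are named per the submitters' processing notes. For the aligner, the annotation and the treatment of reads that match several genes, the entry is: not given in the sources used here.

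From the 2 control dish columns, with 15838921 and 16253609 reads, shares of reads and per-length levels were computed with Python 3.11.15, pandas 2.3.3 and numpy 2.4.6. Transcript lengths came from GENCODE 29 (transcripts of at least 200 bases) for 21760 of 23368 symbols (93.1%), which held 99.4% and 99.3% of reads, and a level depends on the transcript chosen. The script was tested on simulated data. No test between groups was made, since only 1 group was described.

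The members and lists were chosen with earlier results of these data known. The naming rule covered the 20 highest genes by reads and by level, the 3 highest members of each list, all members of short lists, defining markers near zero, and the 6 largest differences between the libraries. Not every gene it covers is printed, and other list members were named after their values were seen. Some genes under this rule were left out of the text. Alternatives changed the read threshold, the scale, the denominator, the pseudocount and the libraries used.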

Additional observations from a re-analysis of the deposited data

How the results depend on the processing

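Ranking by length-corrected level instead of reads moved the number of genes holding 50% of the signal from 1051 to 540, and the share of cytosolic ribosomal proteins from 5.25% to 11.5%. Leaving out either library gave 1041 to 1057 genes and 4.94% to 5.56%. The SD of the log2 difference between the libraries was 0.28, and it was 0.23 with a pseudocount of 10, 0.28 with scaling to total reads and 0.21 where the mean normalized count had to reach 50. The number of present genes, 12814, lay between 11128 and 14011 over the read thresholds of 50 and 3 and was 11679 with a level of at least 1. It was 12952 to 13090 with either library left out. Near zero genes numbered 8981, or 6375 with no read in both libraries, and 9246 to 9394 with either library left out. Of 29 class shares without the ribosomal class, 29 moved beyond the SD of the libraries on the per-length scale and 24 with ribosomal proteins out of the denominator. The number of members present moved by over 1.5 times in 24 of 113 lists and families at 50 reads and in 10 at a level of at least 1. The highest member was the same in 78 of 106 lists and families when ranked by reads and in 83 by coding length, which was taken from GENCODE and not from the RefSeq proteins first planned. No paired analysis was possible because only 1 group was described. Depth limits what can be said of genes with fewer than 10 reads.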
